A study of Mus musculus with 6 samples.

Results

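The genes of the proteasome subunits, with their activators, inhibitor and assembly chaperones, were described by the peaks of histone H3 acetylated at lysine 27 (H3K27ac) at their ends. The members are the protein-coding genes on chromosomes 1 to 19 and X of the RefSeq annotation of mm10 whose symbol is Psma to Psmg followed by a number, which gave 51 of 21631 genes. They comprise 14 genes of the constitutive 20S core, 2 core genes known from single tissues, 3 genes of the immunoproteasome, 6 ATPase and 11 other genes of the 19S regulatory particle, 3 chaperones of 19S assembly, 5 activator genes, 1 inhibitor gene and 4 chaperones of 20S assembly. A further 2 genes, Psmc3ip and Psme3ip1, match by symbol and are named for partners of subunits. The rule uses symbols and no measured value.

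CUT&RUN, in which an antibody-tethered nuclease releases the DNA beside a chromatin mark, was run for H3K27ac on left ventricle nuclei sorted by PCM-1, which cardiomyocyte nuclei carry at their surface. The FVB mice were aged 8 to 12 weeks and were either wild type (WT) or, in the group labelled HOM, deleted by CRISPR for both natriuretic peptide genes, Nppa and Nppb, with 3 libraries per genotype, named WT 1 to WT 3 and HOM 1 to HOM 3. Values given across WT or across HOM are those of replicates 1, 2 and 3, in that order. The shared protocol text also lists Myh6-MerCreMer, nTnG and Sun1/sfGFP lines on the FVB/N background, and does not say that these animals carried them. Neither separate mice for each library nor the ends of the deletion are given in the labels, so the spread between libraries may be technical. A peak here comes from many nuclei, so fewer nuclei with the mark and less of it per nucleus cannot be told apart.

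The proteasome degrades proteins tagged with ubiquitin. Its 20S core is a barrel of alpha rings around beta rings, and the beta rings hold the proteolytic sites. The 19S particle, built of a ring of ATPases and a lid, recognises the tagged proteins, unfolds them and feeds them into the core. After interferon signals the catalytic beta subunits can be replaced by those encoded by Psmb8, Psmb9 and Psmb10, which gives the immunoproteasome and changes the peptides available for antigen presentation. Cardiomyocytes are long-lived cells that rely on this system for turnover of sarcomere proteins. H3K27ac marks active promoters and enhancers, and a peak near a gene start is not a measure of its transcript.

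The 6 lists held from 1462 to 106605 peaks, and HOM 2 stood apart with the shortest list and a median peak width of 84 bp, against 232 to 291 bp in the other lists. A gene is called marked when a peak overlaps the 1 kb on either side of one of its annotated ends. Of 10 cardiomyocyte markers, 9, 10 and 10 were marked across WT, and 10, 0 and 8 across HOM. None of 8 endothelial and 7 fibroblast markers was marked in any library. Of 6 smooth muscle and pericyte markers, 2, 3 and 3 were marked across WT and 2, 0 and 1 across HOM, with 393 to 3381 bp covered in all across WT and 0 to 583 bp across HOM. They were Cspg4 in 5 libraries, Abcc9 in 4 and Acta2 in 2, while Rgs5, Myh11 and Pdgfrb had none, and their part in the results was not tested. HOM 2 marked no proteasome gene and no cardiomyocyte marker, so its empty values are not read as loss of the mark, and results are also given without it.

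The promoters below are those of the immunoproteasome genes, which span the range from unmarked to marked in 5 libraries, and of the most often marked genes of the core (Psma1), the 19S lid (Psmd13) and the 19S ATPase ring (Psmc6). Each runs from 250 bases before to 50 bases after the RefSeq start, 5′ to 3′ on the gene's strand, in GRCm38.p6, the assembly that mm10 names. Capitals mark the letters of a searched motif, listed further on: the antioxidant response element core, the gamma-activated site, the CCAAT box or the ETS site. Psmb8 is at chr17:34197945-34198244 on the plus strand, Psmb9 at chr17:34187281-34187580 on the minus strand, Psmb10 at chr8:105938343-105938642 on the minus strand, Psma1 at chr7:114276067-114276366 on the minus strand, Psmd13 at chr7:140882144-140882443 on the plus strand and Psmc6 at chr14:45329574-45329873 on the plus strand.
Psmb8: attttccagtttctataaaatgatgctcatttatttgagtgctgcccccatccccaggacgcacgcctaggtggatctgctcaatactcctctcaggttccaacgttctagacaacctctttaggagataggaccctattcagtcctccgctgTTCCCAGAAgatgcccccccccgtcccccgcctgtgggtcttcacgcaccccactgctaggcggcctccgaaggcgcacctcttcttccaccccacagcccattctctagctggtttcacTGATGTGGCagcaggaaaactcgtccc
Psmb9: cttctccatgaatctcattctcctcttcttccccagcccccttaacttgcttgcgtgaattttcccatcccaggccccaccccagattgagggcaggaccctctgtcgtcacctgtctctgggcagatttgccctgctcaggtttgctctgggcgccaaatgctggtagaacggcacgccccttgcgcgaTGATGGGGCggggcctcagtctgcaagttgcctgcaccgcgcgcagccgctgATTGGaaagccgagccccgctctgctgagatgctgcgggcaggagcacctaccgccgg
Psmb10: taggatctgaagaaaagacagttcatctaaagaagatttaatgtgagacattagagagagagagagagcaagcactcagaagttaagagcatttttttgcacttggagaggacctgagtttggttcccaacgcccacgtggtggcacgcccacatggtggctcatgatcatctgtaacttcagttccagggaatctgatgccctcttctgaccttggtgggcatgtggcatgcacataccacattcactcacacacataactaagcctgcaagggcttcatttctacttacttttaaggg
Psma1: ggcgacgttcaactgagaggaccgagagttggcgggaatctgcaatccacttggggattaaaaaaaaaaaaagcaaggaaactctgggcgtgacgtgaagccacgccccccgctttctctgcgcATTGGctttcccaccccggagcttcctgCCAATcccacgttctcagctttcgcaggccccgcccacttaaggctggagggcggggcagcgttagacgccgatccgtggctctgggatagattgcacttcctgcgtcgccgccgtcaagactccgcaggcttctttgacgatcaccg
Psmd13: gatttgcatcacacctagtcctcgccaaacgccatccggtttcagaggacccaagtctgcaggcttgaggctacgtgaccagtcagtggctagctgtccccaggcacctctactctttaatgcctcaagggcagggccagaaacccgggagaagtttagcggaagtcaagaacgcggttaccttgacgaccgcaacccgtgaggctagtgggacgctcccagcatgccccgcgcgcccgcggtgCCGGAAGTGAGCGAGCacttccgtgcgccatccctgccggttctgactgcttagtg
Psmc6: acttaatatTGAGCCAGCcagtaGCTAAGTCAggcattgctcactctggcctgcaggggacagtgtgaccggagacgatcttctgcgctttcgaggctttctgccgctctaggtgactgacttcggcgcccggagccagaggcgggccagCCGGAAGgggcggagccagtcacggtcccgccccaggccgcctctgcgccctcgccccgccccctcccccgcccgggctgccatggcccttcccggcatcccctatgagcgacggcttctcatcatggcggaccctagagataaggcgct

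Proteasome genes were marked more often than protein-coding genes at large in 5 of the 6 libraries, and by the widest margin in the 3 longest lists. The lead in the shorter lists depended on the setting: it held in 4 of 6 libraries with the stronger 50% of peaks or a minus log10 q of at least 5, and in 3 of 6 with whole genes or without the members that share a peak or have another role. In both of the latter, WT 1 and HOM 3 lay below all genes. In WT, 7, 32 and 43 of the 51 genes were marked (13.7%, 62.7% and 84.3%), where 11.7%, 32.2% and 42.7% of all protein-coding genes were. In HOM, 21, 0 and 7 were marked (41.2%, 0% and 13.7%), where 22.9%, 0.384% and 8.08% of all genes were. The ratio of the members' share to that of all genes was 1.95, 1.97 and 1.80 in the 3 longest lists and 1.18 and 1.70 in WT 1 and HOM 3. The excess averaged 16.3 percentage points (SD 17.0, n = 6 libraries), and 19.6 without HOM 2. It was smaller under other settings, with 4.23 points in 5 lists at equal length, 7.66 with the q limit and 10.8 without members that share a peak or have another role. Being marked in every library but HOM 2 was met by 4 of 51 members, beside 4.87% of all genes: Psma1, Psmb10, Psmd13 and Psmc3ip. In no library were 7 members marked (13.7%), beside 55.6% of all genes. In WT 3 alone, the longest list, 9 members were marked (17.6%), beside 9.31% of all genes.

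**Figure D1:**
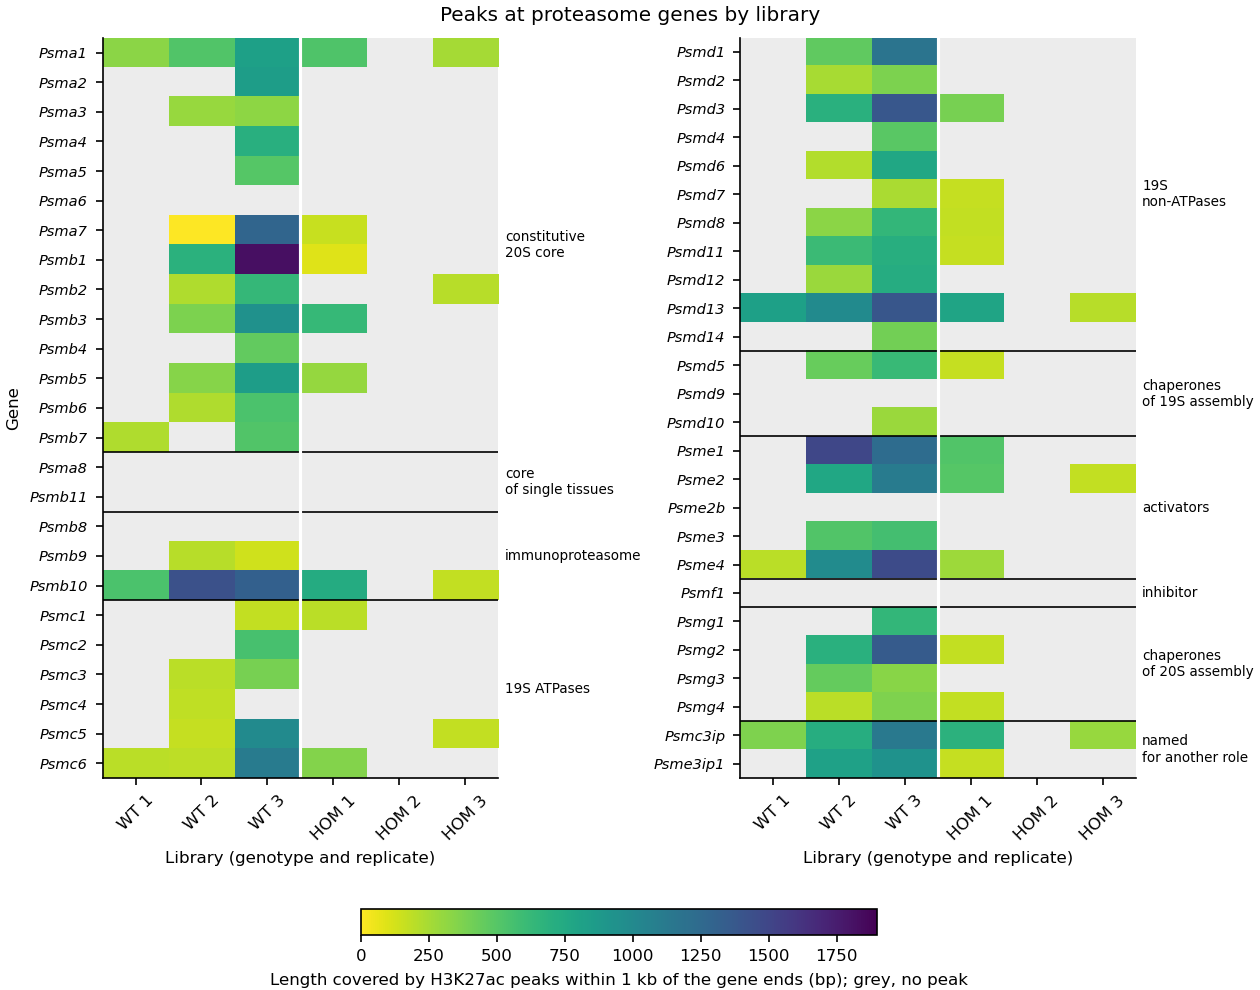
Length in bp covered by H3K27ac peaks within 1 kb of the ends of each of the 51 genes (rows, grouped by role) in the 6 libraries (columns), with grey where no peak was called. WT 2 and WT 3 are filled in most rows, while Psma1, Psmb10, Psmd13 and Psmc3ip are filled in every column except HOM 2.

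In WT 2, WT 3 and HOM 1 the excess was larger once weaker peaks were included. With only the 5000 strongest peaks of each list, ranked by the authors' fold enrichment, 2 of 51 members were marked in each of the 5 libraries other than HOM 2 (3.92%), beside 3.43% of all genes in WT 2 and 4.68% in WT 3. With 10000 peaks WT 3 marked 7 members (13.7% beside 9.65%). With 20000 it marked 18 (35.3% beside 17.9%), and WT 2 and HOM 1 marked 11 each (21.6% beside 13.7% and 12.1%). With 60000 peaks WT 3 marked 39 (76.5% beside 35.1%) and WT 2 marked 30 (58.8% beside 29.3%). The ratio to all genes in WT 3 went from 0.838 at 5000 peaks to 2.18 at 60000, and was 2.00 at 80000 and 1.97 at 100000. In WT 2 it went from 1.14 at 5000 peaks to 2.01 at 60000. WT 1 showed no such course, with ratios of 1.39, 1.68, 1.14 and 1.25 at 5000, 10000, 15000 and 20000 peaks. In HOM 3 they were 1.42, 1.09 and 1.72 at 5000, 10000 and 15000. This ranking by list depth was added after the data were seen.

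**Figure D2:**
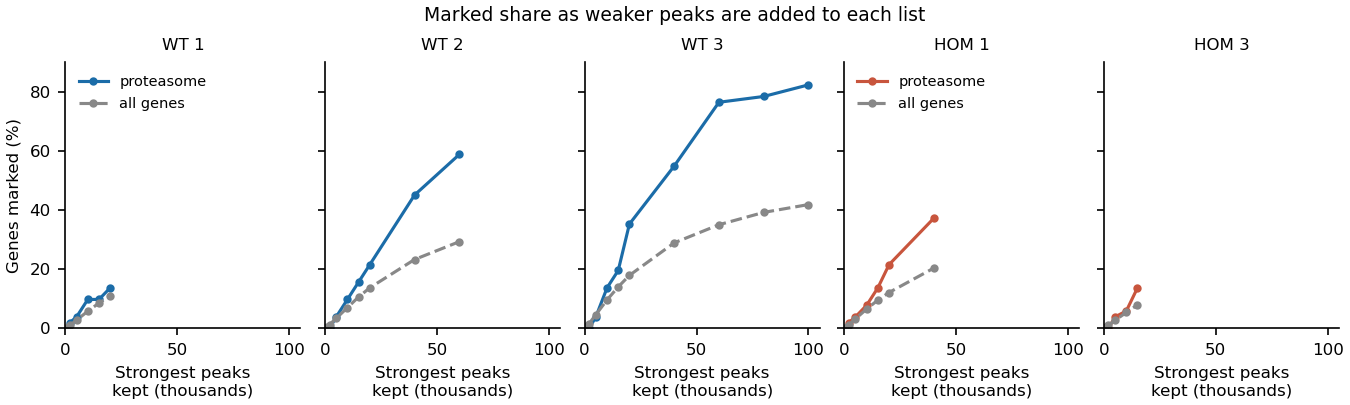
Percentage of the 51 proteasome genes (solid) and of all protein-coding genes (dashed) marked as weaker peaks are added, from the strongest 1000 up to 100000 peaks kept, in 5 libraries. At 5000 peaks each library marks 2 of 51 genes, and at 20000 peaks WT 2, WT 3 and HOM 1 mark 11, 18 and 11.

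In the constitutive core, 2, 8 and 13 of 14 genes were marked across WT, and 5, 0 and 2 across HOM. Psma1, an alpha ring subunit at positions 114264550 to 114276116 of chromosome 7, had 1 peak in each marked library. The peaks covered 327, 517 and 817 bp across WT and 523, 0 and 259 bp across HOM. HOM 1 lay between WT 2 and WT 3, so the genotypes overlapped. The peak of Psma1 stood at the percentiles 71.5, 74.4 and 91.8 of fold in the WT lists (100 being the strongest) and 90.4 and 18.3 in HOM 1 and HOM 3. The summits lay 128 to 531 bp inside the gene, over the bases that follow the printed promoter.

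The beta ring genes were marked somewhat more often than the alpha ring genes, over 7 genes each, by less than the spread between libraries. Of Psmb1 to Psmb7, 1, 5 and 7 were marked across WT and 3, 0 and 1 across HOM, with a WT mean share of 61.9%. Of Psma1 to Psma7, 1, 3 and 6 were marked across WT and 2, 0 and 1 across HOM, with a WT mean share of 47.6%. Psmb1, a beta ring subunit gene, had the most covered bases of all members in WT 3, with 1823 bp, beside 683 bp in WT 2, 94 bp in HOM 1 and none in the other libraries. In all 3 a peak of Psmb1 also touched the window of Tbp, a general transcription factor gene. Psmb5, which encodes the chymotrypsin-like catalytic subunit, was covered over 348 and 842 bp in WT 2 and WT 3, 304 bp in HOM 1 and none elsewhere. The other catalytic subunit genes of the core were marked in 2 WT libraries each and no HOM library, Psmb6 over 223 and 541 bp in WT 2 and WT 3 and Psmb7 over 224 and 516 bp in WT 1 and WT 3. The structural beta subunit gene Psmb3 had 376, 940 and 630 bp in WT 2, WT 3 and HOM 1, so HOM 1 lay within the WT values. Psmb2, another one, had 230, 634 and 207 bp in WT 2, WT 3 and HOM 3. Psma2, Psma4, Psma5 and Psmb4 were marked in WT 3 only, with 843, 699, 499 and 459 bp. Psma3 was marked in WT 2 and WT 3, with 292 and 324 bp. The summits of these peaks lay at -5954 to -4600 bp from the start used for its promoter. WT 2 and WT 3 also had other peaks within 1 kb of that start.

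Psma6 was the one constitutive core gene with no peak at its annotated ends. Its annotation in the gene table starts upstream of a second RefSeq start. At the starts of the promoter table it had a peak in WT 2 and WT 3 and HOM 1. Psmc2, a 19S ATPase gene marked at its ends in 1 library, had one there in 4 libraries, and Psmf1, the inhibitor gene, unmarked at its ends, in WT 2 and WT 3. Unmarked ends of these genes therefore do not mean starts without the mark.

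In the 19S particle, 2, 12 and 16 of 17 genes were marked across WT, and 7, 0 and 2 across HOM. The core and the 19S particle differed by less than the spread between libraries: the marked share of core genes minus that of 19S genes averaged -2.52 points with an SD of 6.11 over the 6 libraries. Its sign was the opposite with whole genes (2.87) and with 5 lists at equal length (0.168). Of the 6 ATPase genes, Psmc6 was marked most often at its ends, with 193, 191 and 1106 bp across WT, 353 bp in HOM 1 and 0 bp in HOM 2 and HOM 3. The strongest peak of Psmc6 stood at the percentiles 71.5, 84.2 and 84.2 across WT and 29.2 in HOM 1. Psmc5 had 0, 165 and 991 bp across WT and 0, 0 and 171 bp across HOM. Psmc4 was marked in WT 2 only, with 184 bp, and was the one member marked there and not in WT 3. Psmc3 had 196 and 388 bp in WT 2 and WT 3, and Psmc1 had 171 bp in WT 3 and 197 bp in HOM 1.

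Of the 11 genes of the 19S base and lid outside the ATPases, all were marked in WT 3, 8 in WT 2, 5 in HOM 1 and 1 each in WT 1 and HOM 3. Psmd13, a lid subunit gene at positions 140882394 to 140898642 of chromosome 7, was the one marked in 5 libraries. Psmd11, another lid subunit gene, had 0, 604 and 711 bp across WT and 170, 0 and 0 bp across HOM. Psmd14, which encodes the deubiquitinase of the lid, and Psmd4, which encodes a ubiquitin receptor, were marked in WT 3 only, with 405 and 489 bp. Psmd1 and Psmd2, the large scaffold subunits, were marked in WT 2 and WT 3 and in no HOM library, with 465 and 1166 bp at Psmd1 and 249 and 375 bp at Psmd2. The lid genes Psmd6 and Psmd12 showed the same pattern, with 221 and 768 bp and with 284 and 726 bp. Psmd3 and Psmd8, also of the lid, were marked in WT 2, WT 3 and HOM 1, with 694, 1382 and 393 bp at Psmd3 and 330, 643 and 173 bp at Psmd8. Psmd7 had 242 bp in WT 3 and 166 bp in HOM 1.

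The 3 immunoproteasome genes differed among themselves. Psmb10, at positions 105935728 to 105938392 of chromosome 8, was covered over 537, 1431 and 1317 bp across WT and 734, 0 and 171 bp across HOM. HOM 1 exceeded WT 1, so the genotypes overlapped. The strongest peak of Psmb10 stood at the percentiles 95.8, 74.4 and 91.8 of fold across WT and 61.4 and 40.4 in HOM 1 and HOM 3, with its summit 120 to 617 bp inside the gene. Psmb9, at positions 34182030 to 34187330 of chromosome 17, had 201 and 139 bp in WT 2 and WT 3 and no peak elsewhere. Its peaks ranked low in those lists, at the percentiles 13.4 and 4.60. Their summits lay at -832 and -966 bp from the Psmb9 start, and both peaks touched the window of Tap1, a peptide transporter gene that starts 226 bp from Psmb9 on the other strand. Psmb8, at positions 34198195 to 34201454, had no peak from 1 kb before to 1 kb after the gene in any library.

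By class, 1, 2 and 2 of the 3 immunoproteasome genes were marked across WT and 1, 0 and 1 across HOM, a count that rests on Psmb10 in 5 of its 7 gene and library pairs. The share was 55.6 ± 19.2% across WT and 22.2 ± 19.2% across HOM, beside 54.8 ± 39.3% and 16.7 ± 18.0% for the core and 58.8 ± 42.4% and 17.6 ± 21.2% for the 19S genes (SD, n = 3 each). The classes differed by less than their spread between libraries. Immune cells also express these genes, so the 10 immune markers are given beside them: 0, 3 and 3 were marked across WT and 2, 0 and 1 across HOM, with 0 to 2214 bp covered in all across WT and 0 to 488 bp across HOM. The marked ones were Spi1, Cd68 and Cd79a. Ptprc, Csf1r, Adgre1, Itgam, Lyz2, Cd3e and H2-Aa had no peak at their ends in any library, and the part of immune nuclei in the Psmb10 peaks was not tested.

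**Figure D3:**
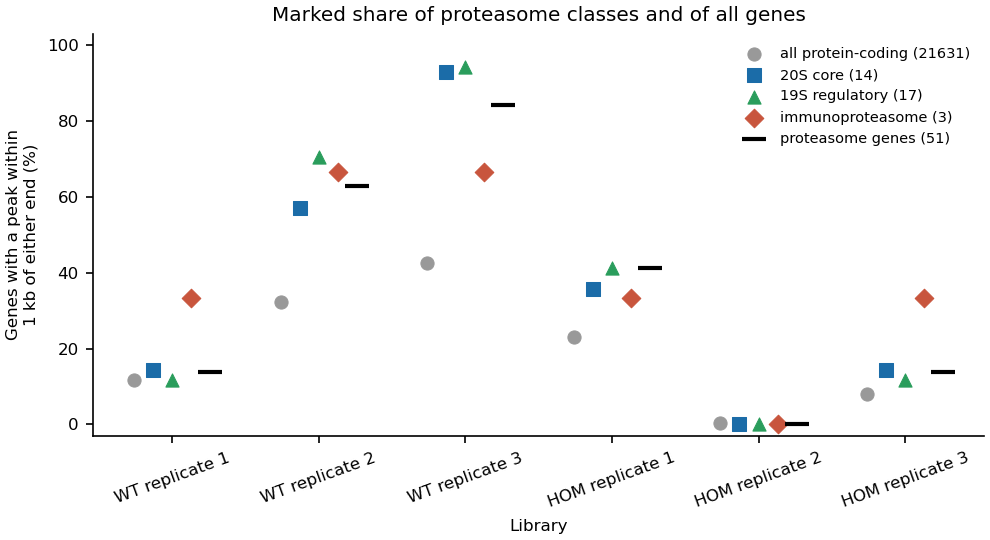
Percentage of genes marked in each of the 6 libraries, for all 21631 protein-coding genes, the 14 core genes, the 17 genes of the 19S particle, the 3 immunoproteasome genes and all 51 members. Core and 19S symbols both lie above the grey circle of all genes in WT 2 (57.1% and 70.6%) and in WT 3 (92.9% and 94.1%).

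Among the activators, Psme1, Psme2, Psme3 and Psme4 were marked and Psme2b was not. Psme4, whose product caps the core without ATP, was covered over 200, 985 and 1469 bp across WT and 279, 0 and 0 bp across HOM. Its strongest peak stood at the percentiles 94.2, 95.1 and 90.4 in WT 2 and WT 3 and HOM 1, and at 15.5 in WT 1. Psme1 and Psme2 encode the interferon-inducible activator that associates with the immunoproteasome. Psme1 had 0, 1495 and 1231 bp across WT and 518, 0 and 0 bp across HOM, and Psme2 had 0, 770 and 1108 bp across WT and 498, 0 and 171 bp across HOM. Psme3, which encodes a nuclear activator, had 515 and 571 bp in WT 2 and WT 3. Peaks at Psme1 also touched the window of Fitm1 in 3 libraries, and those at Psme2 that of Rnf31 in 4. At Psme1 and Psme2 WT 1 was empty while HOM 1 was not, so the genotypes overlapped.

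The chaperones of 20S assembly were marked at 0, 3 and 4 of 4 genes across WT and 2, 0 and 0 across HOM. Psmg2 had 693 and 1351 bp in WT 2 and WT 3 and 174 bp in HOM 1, and its dimer partner gene Psmg1 had 642 bp in WT 3 only. Psmg3 had 451 and 335 bp in WT 2 and WT 3, and Psmg4, its partner, had 194, 367 and 171 bp in WT 2, WT 3 and HOM 1. Of the chaperones of 19S assembly, Psmd5 had 441 and 617 bp in WT 2 and WT 3 and 166 bp in HOM 1, Psmd10 had 286 bp in WT 3 only, and Psmd9 had none. Psmc3ip, whose product acts in meiotic recombination, was marked in 5 libraries, with 370, 714 and 1130 bp across WT and 679, 0 and 291 bp across HOM. All of its peaks also touched the windows of the neighbouring gene Retreg3. Psme3ip1 had 812, 934 and 166 bp in WT 2, WT 3 and HOM 1. With gene bodies counted too, 9, 36 and 45 members had a peak across WT and 25, 0 and 7 across HOM, beside 20.6%, 42.9% and 53.0% of all genes across WT and 33.3%, 1.86% and 16.0% across HOM. Members then exceeded all genes in WT 2, WT 3 and HOM 1 and lay below them in WT 1 (17.6%), HOM 2 (0%) and HOM 3 (13.7%). The median gene length was 11567 bp over members and 17329 bp over all genes, and its part in these shares was not tested. The members without a peak anywhere were Psmb8, Psmd9, Psme2b, and the core genes of single tissues, Psma8 of the testis and Psmb11 of the thymus.

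Where a proteasome gene was marked, the median rank of its strongest peak differed from that at all marked genes by less than the spread between libraries, and whether its covered length did so depended on the window. The median percentile of fold of the strongest peak was 71.5, 67.3 and 73.0 at marked members across WT, beside 55.3, 67.3 and 77.7 at all marked genes. In HOM 1 and HOM 3 it was 61.4 and 40.4, beside 61.4 and 61.6. The difference averaged -1.94 percentile points with an SD of 13.4 over 5 libraries, and its sign was positive without HOM 3 (2.87) and where the summit had to lie in the window (3.23). The median covered length was 327, 408.5 and 699 bp at marked members across WT, beside 245, 493 and 724 bp at all marked genes, and 279 and 207 bp in HOM 1 and HOM 3, beside 355 and 239.5 bp. The log2 ratio of these medians averaged -0.09 with an SD of 0.30 over 5 libraries. It exceeded its SD with windows of 2 kb (-0.31, SD 0.14), with whole genes (-0.61, SD 0.30), without WT 1 (-0.22, SD 0.13) and without members that share a peak or have another role (-0.44, SD 0.33), each time with shorter coverage at members. Members are also shorter genes, with a median length of 11567 bp, beside 17329 bp over all genes. A whole-gene window is therefore shorter at members, and the part of gene length in these ratios was not tested. Median widths of the strongest peaks were 224, 336 and 453 bp at members across WT and 230, 334 and 458 bp at all genes. A minus log10 q of at least 5 left 54.9% of members marked in WT 3, 33.3% in WT 2, 13.7% in HOM 1, 3.92% in WT 1 and 0% in HOM 3, and members then exceeded all genes in 4 of 6 libraries.

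**Figure D4:**
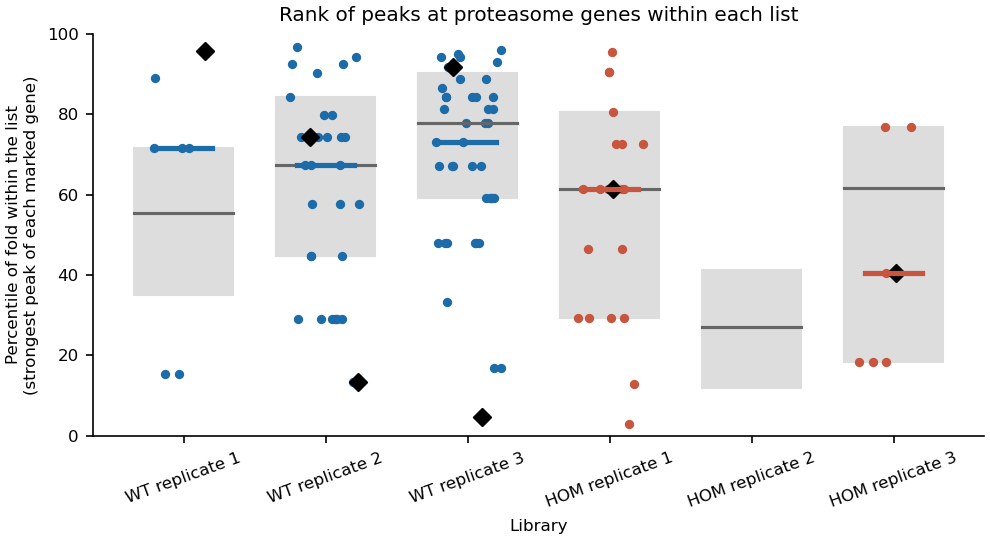
Percentile of fold within its own list for the strongest peak of each marked proteasome gene (points; black diamonds, immunoproteasome genes), with the members' median (coloured line). Grey boxes and lines give the quartiles and median over all marked protein-coding genes, and the 2 medians coincide at 67.3 in WT 2 and at 61.4 in HOM 1.

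The promoter table gave a start for 43 of the 51 members and for 17274 of all genes. Marked members among the 43 were mostly marked there, and Psma7 in WT 2 and HOM 1 and Psmd13 in HOM 3 were marked at the far end alone. Psmd3, not among the 43, had its WT 2 peak at one end and its HOM 1 peak at the other. A peak lay within 1 kb of it at 7, 29 and 38 of the 43 across WT, and at 18, 0 and 5 across HOM (16.3%, 67.4% and 88.4%, then 41.9%, 0% and 11.6%). The shares over all genes with a start were 12.4%, 33.0% and 43.3% across WT and 23.7%, 0.365% and 8.46% across HOM. Summits fell on both sides of the start, 27 upstream and 36 downstream in WT 3 and 16 and 16 in WT 2. Within 100 bp of it lay 4 of 63 in WT 3 (6.35%) and 0 of 32 in WT 2, beside 8.22% and 6.70% over all genes. In WT 1 it was 1 of 8 (12.5%), beside 6.01%. The median distance in WT 3 and WT 2 was 347 and 310 bp, beside 381 and 422 bp over all genes.

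**Figure D5:**
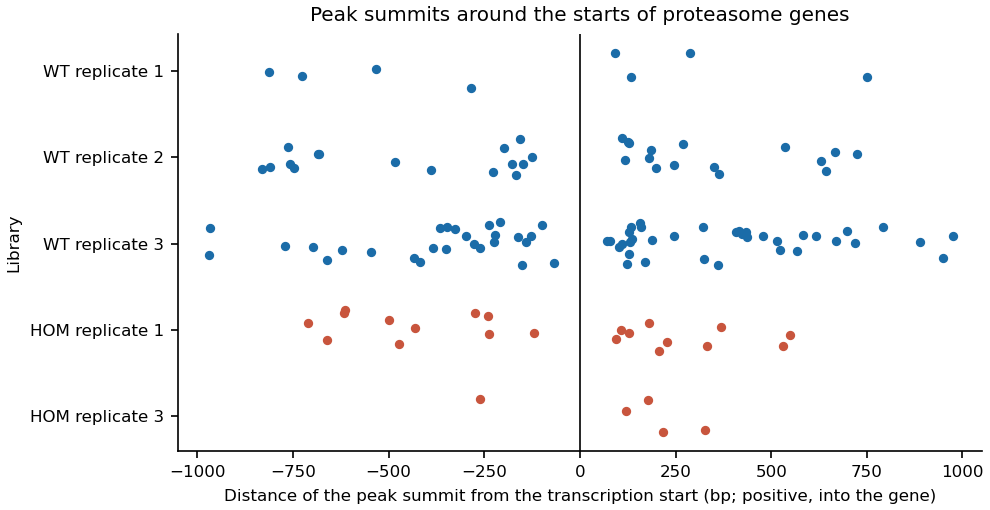
Distance in bp from the nearest transcription start to each peak summit within 1 kb of a proteasome gene start, in 5 libraries, with positive values into the gene. Points lie on both sides, with 4 of 63 within 100 bp in WT 3 (6.35%), beside 8.22% over all genes.

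Of the 51 members, 30 have another protein-coding gene within 2 kb, and at 16 members a peak also touched the window of another gene in at least 1 library. Among the 16 are Psmc5 with Ftsj3, Psmg2 with Cep76 and Psme3ip1 with Rspry1, in 3 libraries each. In WT 3 the strongest peak was shared in this sense at 14 of 43 marked members (32.6%), beside 29.9% of all marked genes, and in WT 2 at 12 of 32 (37.5% beside 29.1%). Psmd13 starts 85 bp from Sirt3, a mitochondrial deacetylase gene on the other strand, and its far end lies 299 bp from Cox8b, which encodes the muscle form of a cytochrome c oxidase subunit. In every marked library the strongest peak of Psmd13 lay at the Cox8b end, with summits 16952 to 17291 bp from the Psmd13 start. Its percentiles were 88.9, 92.5 and 95.8 across WT and 72.6 and 76.8 in HOM 1 and HOM 3. The peaks at the Sirt3 end stood at 55.3, 79.9 and 95.1 across WT and at most at 29.2 in HOM 1, and HOM 3 had none there. At Psma7 the peaks of WT 2 and HOM 1 lay at the far end, beside Lsm14b, and at the start only WT 3 had peaks. A peak shared with a neighbour is not assigned to either gene here.

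The comparison of genotypes asked whether loss of Nppa and Nppb went with other acetylation at proteasome genes. The marked share of members was 53.6 ± 36.2% across WT and 18.3 ± 21.0% across HOM (SD, n = 3 each). HOM minus WT was -35.3 points, smaller in size than the SD of WT and larger than the SD of 29.6 pooled over both genotypes, and -26.1 points without HOM 2. Over all protein-coding genes it was 28.8 ± 15.8% and 10.5 ± 11.5%, a difference of -18.4 points, larger in size than the SD of either genotype. Limited to the 15184 strongest peaks of each list and without HOM 2, 5, 8 and 10 members were marked across WT and 7 and 7 in HOM 1 and HOM 3, a difference of -1.31 points. The shares of all genes were then 8.65%, 10.8% and 14.2% across WT and 9.68% and 8.08% in HOM 1 and HOM 3. Genotype and list length cannot be told apart in the full lists, since the 2 longest are WT and the 2 shortest are HOM.

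No member was marked in all WT and no HOM libraries, beside 1.1% of all genes, nor in the reverse pattern, beside 0%. Covered length was compared gene by gene with a two-sided exact permutation test over the 20 assignments of libraries. With 3 against 3 the smallest p is 0.1, so no gene of 21631 could pass 0.05, adjusted or not, and none did (0 at an unadjusted p under 0.05). Covered length was higher in every WT than in every HOM library at 1 member, beside 2.84% of all genes, and the reverse was met by 0 members, beside 0%. The member was Psmd13, with 823, 992 and 1392 bp across WT and 792, 0 and 207 bp across HOM, where the nearest pair was WT 1 with 823 bp and HOM 1 with 792 bp. Its means were 1069 ± 292 bp and 333 ± 411 bp (SD, n = 3 each), a difference of -736 bp (exact permutation p = 0.1, Benjamini-Hochberg adjusted p = 1). Without HOM 2 it was again 1 member, Psmd13, beside 2.85% of all genes, and the reverse was met by 0 members, beside 0.00925%. At equal list length Psmd13 kept its order, with 823, 576 and 920 bp across WT and 460 and 207 bp in HOM 1 and HOM 3, while Psmc3ip overlapped, with 184, 549 and 768 bp and 679 and 291 bp. Every Psmd13 peak also touched the window of Sirt3 or Cox8b, so this order is not assigned to Psmd13. At equal length the covered bases in WT 2, HOM 1 and HOM 3 lay at the Cox8b end alone.

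WT 1, the shortest WT list, decided these counts. Without it, 10 members were marked in both other WT libraries and no HOM library (19.6%), beside 9.54% of all genes. They were Psma3, Psmb6, Psmb9, Psmc3, Psmd1, Psmd2, Psmd6, Psmd12, Psme3 and Psmg3. Covered length then separated the genotypes at 26 members (51%), all higher in WT, beside 26.1% of all genes. Both counts can only come from genes marked in WT 2 and WT 3, which were 31 members (60.8%), beside 30.9% of all genes. The higher shares of members are therefore not read as a difference between genotypes particular to them. Without HOM 1 the counts were 2 members (5.83% of all genes) and 6 members (8.79% of all genes). Without WT 2 they were 1 (1.45%) and 2 (3.43%).

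The promoters of members were searched on both strands for motifs of factors known to act on proteasome or housekeeping promoters. The 43 members with an entry had 47 promoters, and all protein-coding genes had 21045. The ETS site CCGGAAG was found in 17 of the 47 (36.2%), beside 11.7% of all promoters. Marked genes hold it more often at large: 22.1% of genes with a peak at the start in WT 3 had it, beside 6.22% of the others. Counted likewise by gene, 16 of the 43 members had it. Members with it include Psmd13 and Psmc6, printed above, and Psmc1, Psmd11 and Psme4. The NRF1 site (GCGCA and GCGC, 1 base apart) was found in 7 (14.9% beside 6.44%) and the YY1 site AANATGGC in 6 (12.8% beside 6.41%). NRF1 here means nuclear respiratory factor 1 and not the product of Nfe2l1. Counted by gene and not by promoter, 7 and 6 of the 43 members had the NRF1 and YY1 sites. Of genes with a peak at the start in WT 3, 12.9% and 11.3% had them. Members with both were Psma2, Psma4 and Psmc5.

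The core of the antioxidant response element is bound by the factor encoded by Nfe2l1, which drives proteasome genes when the proteasome is impaired. It was searched with the loose pattern TGANNNNGC and found in 27 (57.4% beside 41.7%). Counted by gene and not by promoter, 25 of the 43 members had this pattern. Genes with a peak at the start in WT 3 had it at 48.2%, beside 43.4% of the others. The stricter form TGACTCAGC, which lies within the core pattern, was found in 0, beside 0.418%. The CCAAT box was found in 16 of the 47, beside 38.5% of all promoters. The interferon response element core (GAAA and GAAA, 2 bases apart) was found in 5 (10.6% beside 3.38%), at Psme1, Psmb3, Psmd4, Psmd9 and Psmg4. The gamma-activated site TTCNNNGAA was found in 3 (6.38% beside 7.76%), among them Psmb8, at bases -97 to -89 from its start. The printed Psmb10 promoter held none of the motifs, with 3 CpG dinucleotides and a GC content of 45.7%, beside medians of 19 and 57.3% over members and 13 and 56.7% over all promoters. At Psmd13 the ETS site, at bases -6 to 1, and the antioxidant response element core, at bases 2 to 10, adjoin. Each match is a description of letters and not a site.

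Other genes of the pathway, from a list of 32 of which 31 matched the annotation, were marked at 9, 22 and 26 across WT and 13, 0 and 5 across HOM. These are 29.0%, 71.0% and 83.9% across WT, beside 11.7%, 32.2% and 42.7% of all genes. Across HOM they are 41.9%, 0% and 16.1%, beside 22.9%, 0.384% and 8.08%. Nfe2l1 itself, with Ddi2 and Ngly1, which encode the protease and the deglycosylase that activate its product, were marked in all WT libraries and in HOM 1. Nfe2l1 had 359, 1453 and 1724 bp across WT and 892, 0 and 0 bp across HOM, and Ngly1 had 715, 1018 and 1806 bp across WT and 656, 0 and 0 bp across HOM. The polyubiquitin gene Ubb was marked in 5 libraries, and Uba1, which encodes the ubiquitin-activating enzyme, in WT 3 only. Vcp, which encodes the segregase that extracts tagged proteins from complexes, had 177, 551 and 1235 bp across WT and none across HOM. Being marked in all WT and no HOM libraries was met by 1.1% of all genes. Of the shuttle genes, which carry ubiquitin-tagged proteins to the proteasome, Ubqln1 was marked in 5 libraries and Ubqln2 in none. Among proteasome-associated genes without a Psm symbol, Akirin2 and Sem1 were marked in 3 libraries each, and Ecpas and Uchl5 in none.

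On the antigen presentation side, B2m was marked in 4 libraries, with 275, 509 and 946 bp across WT and 441, 0 and 0 bp across HOM. Tapbp was marked in 3 libraries, Tap1 and Tap2 in WT 2 and WT 3, and Nlrc5, a transactivator of class I genes, in none. Of the interferon signalling genes, Stat2 and Irf9 were marked in WT 2 and WT 3, and Irf1 in none. Differences between genotypes at these genes gave an exact permutation p of at least 0.1 and an adjusted p of 1, over the 21631 genes tested.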

How the data were processed

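H3K27ac CUT&RUN peak lists of 6 libraries were used, 3 per genotype by the sample titles. Per the submitters' processing notes, BWA, MACS2 and the build mm10 were used, and their versions are not given in the sources used here. Each library has its own list, in narrow peak format. Per peak, the authors deposited a score, the fold enrichment (column 7) and both significance values as −log10 (p-value, then q-value). These values are the authors' and served to rank and filter peaks within a list. The lists hold no read counts, so depth is not stated and no counting interval is given.

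Genes came from RefSeq (GRCm38.p6), and starts and promoter sequences from its promoter table. The members Psma8, Psmb1, Psmb2, Psmb7, Psmc3, Psmd3, Psmd7 and Psmg2 had no entry there. Percentiles of fold use mid-ranks over all peaks of a list, since many folds are tied. Covered length is the number of bases under peaks within 1 kb of either annotated end. Positions are 1-based. Members, classes, motifs and pathway lists were chosen with earlier results of these data known, so no p is given over members. Genotypes were compared per gene by two-sided exact permutation with Benjamini-Hochberg adjustment over all 21631 genes. Genes named in full are the immunoproteasome genes and, per class, the 2 marked in the most and the 2 in the fewest libraries. Other genes named were chosen after their values were seen. Some genes of the pathway list are not reported here by name. Ranking by list depth and the use of 20000 peaks were added after the data were seen. On simulated data, covered lengths were checked at 6000 gene windows with 0 mismatches, and 200 of 200 planted genes reached the smallest p, as did 185 of 1800 others. Python 3.11.15, numpy 2.4.6, pandas 2.3.3 and matplotlib 3.10.9 were used.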

Additional observations from a re-analysis of the deposited data

How the results depend on the processing

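Over all results, 92 alternative values stayed within the spread between libraries or within 1.5 times of the count, 18 moved and 6 turned. The 92 include the difference in marked share with the replicate block, which could not move. The cause was not tested unless given. Whether the replicate numbers mark pairs is not settled. Deviations of same-numbered libraries from their genotype means correlated at 0.00414, -0.115 and -0.125 over 9612 genes. Those of differently numbered libraries correlated at -0.167 to 0.303. With 3 libraries per genotype and lists of unlike length, these values cannot show or exclude a pairing. With the replicate block the count of members lower in HOM in every numbered pair was 1 (Psmd13), beside 3.25% of all genes. The mean difference in marked share stays at -35.3 points by construction, since pairing cannot change it. Its SD over the 3 pairs was 54.5 points. The smallest sign-flip p that 3 pairs allow is 0.25.

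With every list limited to the shortest, 1462 peaks, the difference in marked share between genotypes was -0.654 points, the excess over all genes -0.455 points, the log2 ratio of covered length to all marked genes -0.406 (-0.0927 in the full lists) and the members with separated genotypes 0. That length leaves 1 marked member in 1 WT list and 0 elsewhere. Of all 21631 genes, 11 then had covered length higher in every WT than in every HOM library. With 5 lists at equal length the difference between genotypes was -1.31 points and that between core and 19S genes 0.168. With the stronger 50% of peaks, and with a minus log10 q of at least 5, 1 member was marked in all WT and no HOM libraries and 2 had separated genotypes. Of all 21631 genes, 202 and 386 met these patterns with the stronger 50%, and 96 and 168 with the q limit. With the q limit the log2 ratio of covered length was 0.122. The excess over all genes, 16.3 points in the full lists, was 4.23 points at equal length in 5 lists, 7.66 with the q limit and 10.8 without members that share a peak or have another role. With windows of 2 kb the log2 ratio was -0.311. With windows of 500 bp 0 members had separated genotypes, beside 492 of the 21631 genes. With whole genes 2 had, beside 651 of the 21631 genes. The core minus 19S difference with whole genes was 2.87 and the log2 ratio -0.606. With the summit in the window the percentile difference was 3.23. Without members that share a peak or have another role the log2 ratio was -0.437; this leaves out 16 marked members by construction, while all genes were not trimmed likewise.

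Leaving out 1 library each gave -55.2 to -19.9 points between genotypes, 11.2 to 19.6 points of excess, -3.53 to -0.336 points between core and 19S genes, 0 to 10 members marked in all WT and no HOM libraries, 1 to 26 with separated genotypes, -6.47 to 2.87 percentile points (2.87 without HOM replicate 3) and log2 ratios of -0.220 to -0.0290. Of all 21631 genes, 241 to 2063 were then marked in all WT and no HOM libraries. Covered length was higher in every WT than in every HOM library at 616 to 5653 of them. HOM replicate 2, with no marked member, enters every HOM mean that is not given without it. The lists hold no depth, so a gene without a peak was below the calling limit of that library, and the mark is not shown to be absent.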
